A study of Mus musculus with 10 samples.

Results

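Semaphorins, plexins and neuropilins are the ligands and receptors of a guidance system, and their translation was followed here through ribosome footprints in the developing mouse neocortex. The members were all genes of the footprint table whose symbol starts with Sema3 to Sema7 or Plxna to Plxnd, or is Nrp1 or Nrp2, which gave 31 of 22373 genes, namely 20 semaphorins, 9 plexins and 2 neuropilins. Ribosome profiling (Ribo-seq) counts the mRNA fragments that ribosomes protect from nuclease, so a footprint level reflects both the amount of an mRNA and how densely ribosomes occupy it. Neocortex was taken from wild-type CD-1 mice at embryonic days E12.5, E14, E15.5 and E17 and on the day of birth (P0), with no treatment or mutant allele in any group. Each of the 5 stages had 2 libraries, and each library was made from the pooled brains of many animals of both sexes, which averages differences between litters and sexes within a replicate. The tissue is a mixture of progenitors, neurons, glia, vessels and, where dissection leaves them, meninges, and in such bulk samples fewer cells of a type and less RNA per cell cannot be told apart.

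Semaphorins carry a conserved sema domain and steer growing axons, dendrites and migrating cells by repulsion or attraction. Class 3 semaphorins are secreted and mostly act through a complex in which a neuropilin binds the ligand and an A plexin transmits the signal, while classes 4, 5 and 6 are transmembrane proteins that bind plexins directly and class 7 is held on the membrane by a lipid anchor. Plexins carry a cytoplasmic domain that inactivates small GTPases of the Ras and Rap family, and their signal reshapes actin and microtubules through effectors such as CRMP and MICAL proteins. In the cortex these genes are known for guiding callosal and corticofugal axons, orienting neurons during migration and patterning vessels.

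Libraries held between 7544404 and 36129988 counts, with P0 replicate 1 as the shallowest, and the members took between 0.0178% and 0.0338% of them. Levels are given as CPM, counts relative to the TMM-scaled library size, with replicate 1 before replicate 2, and a longer coding sequence gathers more footprints, so CPM of different genes are not compared. The P0 libraries differed more than those of other stages, with an SD over the 27 tested members of 0.40 for the log2 ratio of replicate 1 to replicate 2 and a median of 0.36, against SDs between 0.12 and 0.19 in the embryonic stages. Markers of the neocortex were present throughout, with stage means of the cortical neuron factor Tbr1 between 76.7 and 115.1 CPM, while the progenitor factor Pax6 went from a mean of 202 CPM at E12.5 to 30.7 at P0. Markers of tissue next to the neocortex moved with stage. The summed CPM of 10 meningeal fibroblast markers lay between 70.6 and 110.4 at E12.5 and E14 and between 3.46 and 9.15 later, that of 8 choroid plexus markers between 285.9 and 1141 and then between 7.66 and 16.8, and that of 10 endothelial markers between 38.6 and 45.6 and then between 13.5 and 30.5. Ganglionic eminence and interneuron markers went the other way, from a mean summed CPM of 30.9 at E12.5 to 210.2 at P0, with 6 of 9 called higher from E14 to E15.5 and 8 of 9 from E12.5 to P0. They rose beside the members that rose, and their part in those rises was not tested.

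Of the 31 members, 27 passed the filter of at least 32 footprints summed over the 2 libraries of a stage and were tested. The rest had few counts: over all 10 libraries Sema3d had 93, Sema3e 73 and Sema3g 54, and Plxnb3, a plexin known from oligodendrocytes, had 1, in P0 replicate 2. All 27 tested members changed over the 5 stages in the moderated F test of limma-voom, where the share over all genes tested was 63.8%, and this count lay between 20 and 27 when each library was left out in turn.

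The footprint level of the system as a whole was highest at E17. Summed over all members, the level was 226.6 and 238.7 CPM at E12.5, then 208.7 and 233.8 at E14, then 211 and 201.5 at E15.5, 308.5 and 286.9 at E17, and 236.5 and 193.2 at P0. Both E17 libraries were above all other libraries. Among the rest, both E12.5 libraries were above both E15.5 libraries, and the E14 and P0 ranges overlapped with those of both stages. The shares of raw counts, which do not use the TMM scaling, were also highest in both E17 libraries, at 0.0338% and 0.0319%. Of the 27 tested members, 13 had their highest stage mean at E17, which was the highest stage for 12% of all genes tested. No tested member had its lowest there, beside 12.6% of all genes. The other members were highest at E12.5 (8 members), E14 (Sema4d alone) or P0 (Sema3b, Sema4f, Sema6a, Sema6b and Sema7a). These stages were the highest for 31.7%, 11.4% and 33.2% of all genes tested.

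**Figure D1:**
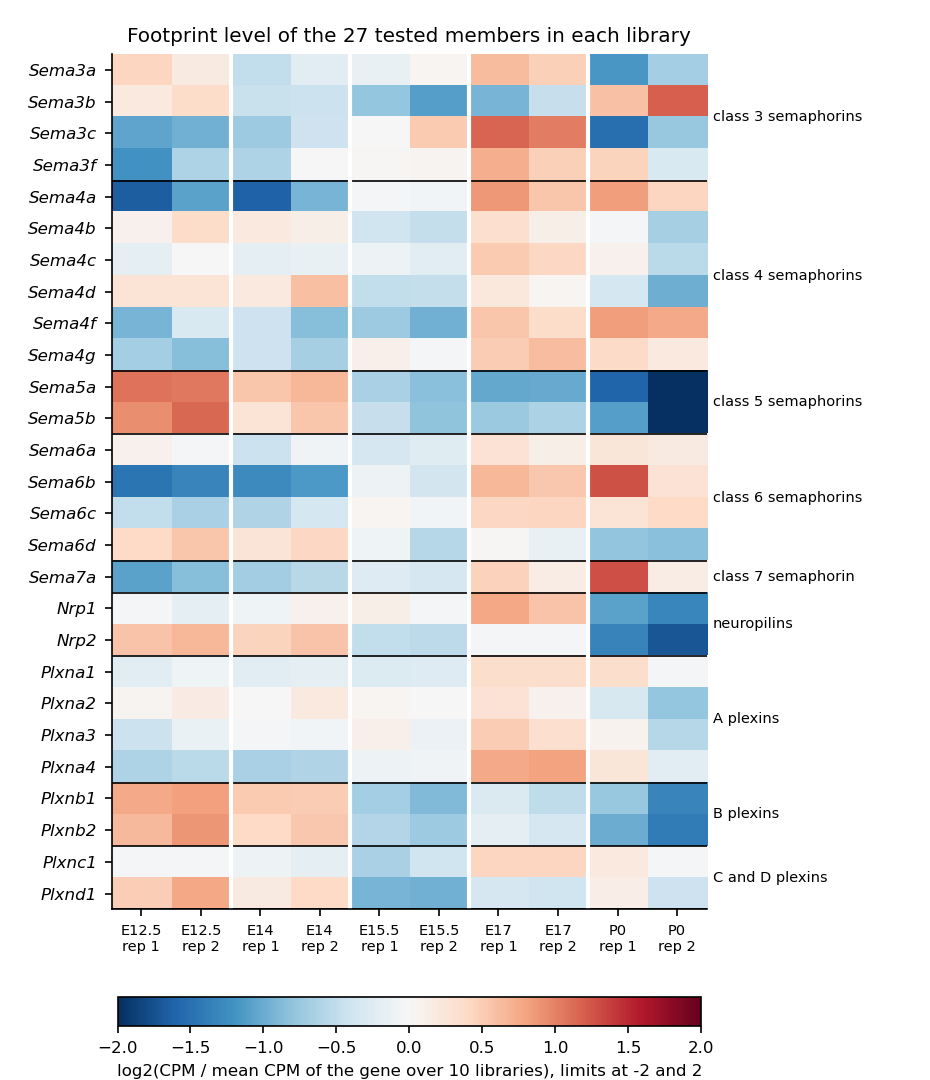
Footprint level of the 27 tested members in the 10 libraries. Each cell is the log2 of the CPM over the mean CPM of that gene, so colours compare libraries within a gene and not genes with each other, and values beyond the limits take the end colours. Most members were above their own mean in both E17 libraries, while Sema5a, Sema5b, Plxnb1 and Plxnb2 were highest at E12.5 and lowest at P0.

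Over the whole span, from E12.5 to P0, members were called in both directions. A member is called changed at a Benjamini-Hochberg adjusted p under 0.05 over 13484 genes and a rise of at least 25%, or a fall by the same factor, in limma-voom. On that rule 20 of 27 members were called, where the share over all genes was 62.1%. Rises numbered 8 (30.1% of all genes were called higher) and falls 12 (32% were called lower), and the median log2 fold change was -0.15 for the members and -0.01 for all genes tested. The rises were Sema3b, Sema4a, Sema4f, Sema4g, Sema6b, Sema6c and Sema7a, all ligands, and a single receptor, Plxna4. The falls were Sema3a, Sema4b, Sema4d, Sema5a, Sema5b and Sema6d among the ligands, and Nrp1, Nrp2, Plxna2, Plxnb1, Plxnb2 and Plxnd1 among the receptors. Of 17 tested semaphorins 7 were thus called higher and 6 lower, and of 10 tested receptors 1 and 6, beside 30.1% and 32% of all genes. With library totals in place of TMM factors, the median gene shifted by 0.51 on the log2 scale and the split of member calls became 11 higher and 8 lower, while no called member changed sign. Plxna2, Plxnd1, Sema4b and Sema4d then lost their calls, and Plxna1, Sema3f and Sema6a were called higher. The calls of 14 of these 20 members were kept under every alternative tried, and those of Plxna2, Plxna4, Plxnd1, Sema3b, Sema4b and Sema4d were lost under at least 1. Without P0 replicate 2 the values of these 6 members moved by more than 1.5 times, to -0.42 for Plxna2, 0.83 for Plxna4, -0.49 for Plxnd1, 0.32 for Sema3b, -0.27 for Sema4b and -0.61 for Sema4d. All but Plxna4 lost their call.

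**Figure D2:**
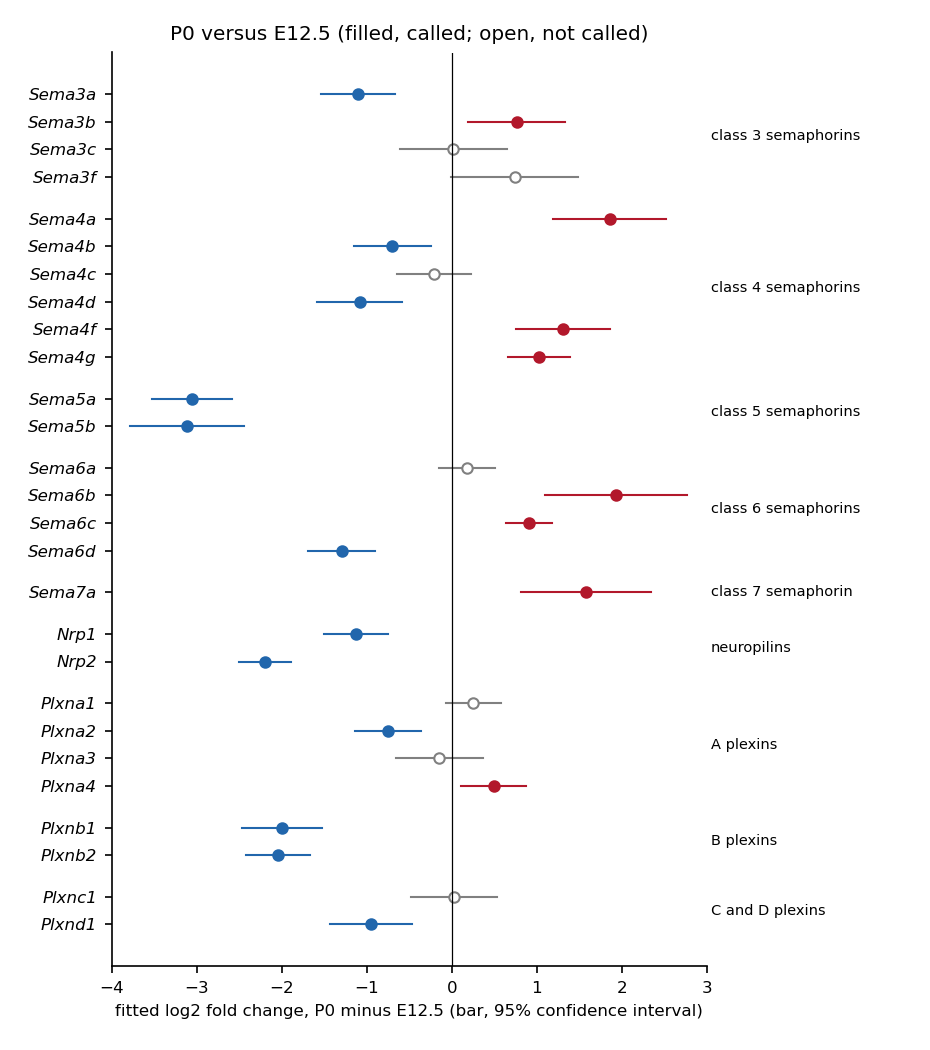
Fitted log2 fold change from E12.5 to P0 for each tested member, grouped by class, with its 95% confidence interval. Filled symbols passed the test, red for higher and blue for lower at P0. The class 5 semaphorins lie furthest to the left, followed by Nrp2 and the B plexins, while Sema6b and Sema4a lie furthest to the right.

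Between E12.5 and E14 no member passed the test. Called by limma-voom were 0 of 27, where the share over all genes was 0.638% (0.497% higher and 0.141% lower), with 4 members at an unadjusted p under 0.05. Here and in what follows, counts at an unadjusted p are given without the share of all genes, so they cannot show an excess among the members. The edgeR quasi-likelihood test called 0, with 3 members at an unadjusted p under 0.05, and DESeq2 called 0, with 1, although it gave no adjusted p for 14 of the 27. The 4 members were Sema3a, Sema3b, Sema5a and Sema5b, with fitted log2 differences of -0.64, -0.72, -0.46 and -0.62. Leaving out either P0 library, which adds to the common estimate of the spread, brought Sema3a, Sema5a and Sema5b to 3 calls, all lower, beside 7.85% of all genes without replicate 1 and 7.79% without replicate 2.

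Between E14 and E15.5 the B plexins, Plxnd1, Nrp2 and both class 5 semaphorins each fell by at least 1.01 on the log2 scale, while Sema3c, Sema4a, Sema4g, Sema6c and Plxna4 rose. In all, 14 of 27 members were called, where the share over all genes was 36.1%. Rises numbered 5 (16.5% of all genes) and falls 9 (19.6%), and with library totals as the scale the split was 7 and 7, with the median gene shifted by 0.29. All 10 meningeal fibroblast markers, 9 of 10 endothelial markers, all 7 choroid plexus markers tested and 6 of 9 microglia markers fell at the same step. Their part in the members' falls was not tested. At E15.5 the defining meningeal gene Col1a1 was at a mean of 0.422 CPM and the endothelial Cldn5 at 4.34, against 10.1 and 11.6 at E14, and among the libraries of both stages only E15.5 replicate 2 had markers of these lists at 0, namely the endothelial Slco1a4 and the choroid plexus genes Aqp1 and Kcnj13. The falls of Nrp2, Plxnb1, Plxnb2 and Sema5a were kept under every alternative, and the count of calls was 9 without E14 replicate 1 and 7 without E14 replicate 2, E15.5 replicate 1 or E15.5 replicate 2.

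Between E15.5 and E17 the members moved up together: 25 of the 27 fitted changes were above 0, with a median of 0.57 on the log2 scale against 0.00 for all genes tested. The members called higher were Nrp1, Nrp2, Plxna1, Plxna4, Plxnc1, Sema3c and Sema4f. These 7 calls, with 0 lower, stand beside a share of 9.04% of all genes called, 5.61% higher and 3.43% lower. A further 10 members had an unadjusted p under 0.05 with a higher level at E17, a count given without the share of all genes. Markers of other cell types also rose at this step, with 4 of 6 tested oligodendrocyte lineage markers called higher (median log2 fold change 1.51), 2 of 10 endothelial (0.91), 1 of 10 meningeal (0.83) and 1 of 9 microglia markers (0.50). None of these was called lower. Of the other lists, the choroid plexus had 1 of 7 tested markers called higher and 1 lower (-0.19). The ganglionic eminence and interneuron list had 0 of 9 called (0.18), and the neocortex list had 0 of 8 called higher and 2 lower (-0.42). The part of these cell types in the members' rise was not tested. The count of calls at this step moved with that over all genes. If any single library of these stages was omitted, limma-voom called 0 members and between 0 and 18 of all 13484 genes, with between 11 and 16 members at an unadjusted p under 0.05. If an E12.5 or E14 library was omitted it called 3 members, beside 5.46% to 5.73% of all genes, and without either P0 library 17, all higher, beside 20.8% or 20.9%.

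Between E17 and P0 the direction turned. Of 27 members 16 were called, against 20.5% of all genes. All but Sema3b were lower at P0, so 15 fell (11.1% of all genes were called lower) and 1 rose (9.46% were called higher), with a median of -0.76 against -0.02 for all genes tested. Both neuropilins, Plxna2, Plxna3, Plxna4, both tested B plexins and 8 semaphorins fell. This step and the one before share the E17 libraries, so a high level in those libraries counts in both. Omitting E17 replicate 1 left 4 calls beside 4.11% of all genes, omitting E17 replicate 2 left 8 beside 8.88%, and DESeq2 called 9 beside 16.5%. With the E17 and P0 libraries fitted alone limma-voom called 0 of the members and 0 of all genes. In that fit 16 members had an unadjusted p under 0.05, a count given without the share of all genes. Omitting P0 replicate 2, which leaves P0 to the shallowest library alone, gave a member median of -0.32. Omitting P0 replicate 1 instead gave -0.91. Without P0 replicate 2 the values of Plxna2, Plxna3, Plxna4, Plxnb1, Sema4b, Sema4c, Sema4d, Sema5a and Sema5b came to between -0.52 and -0.26, a change by more than 1.5 times for each of these 9. All but Plxna4 lost their call. No call at either of these last steps was kept under every alternative.

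**Figure D3:**
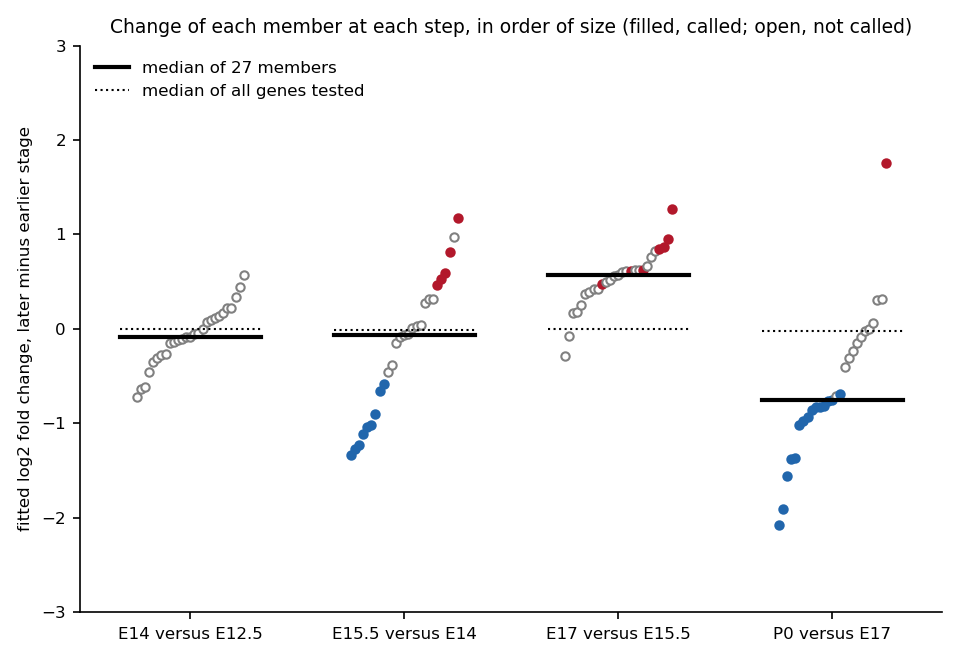
Fitted log2 fold change of the 27 tested members at each of the 4 steps between neighbouring stages, ordered by size within a step. Filled symbols passed the test, and lines mark the median of the members (solid) and of all genes tested (dotted). The medians stay close at the first 2 steps and part at the last 2, at 0.57 and then at -0.76 for the members.

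Among the secreted class 3 ligands, Sema3c had a sharp peak at E17. Changes are given here and in what follows as limma-voom log2 fold changes with their SE and Benjamini-Hochberg adjusted p. Sema3c, an attractant for cortical axons that binds both neuropilins, had 5.39 and 5.72 CPM at E12.5, then 6.76 and 8.37 at E14, then 11.2 and 16.1 at E15.5, 25.0 and 22.8 at E17, and 3.92 and 6.63 at P0. It rose from E12.5 to E17 without overlap between neighbouring stages, and the P0 libraries lay on either side of the E12.5 ones. The gene rose by 0.81 (SE 0.23, adjusted p = 0.0254) from E14 to E15.5 and by 0.84 (SE 0.21, adjusted p = 0.0472) from E15.5 to E17, and then fell by 2.07 (SE 0.25, adjusted p = 0.00203), which is 4.21-fold. The call from E15.5 to E17 was lost under 10 of 19 alternatives and that from E14 to E15.5 under 3. Its share of class 3 footprints was 30.1% and 32.6% at E12.5, 59.7% and 60.5% at E17, and 31% and 42% at P0.

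Sema3a, the founding repellent of the family, which signals through Nrp1, had 9.19 and 7.74 CPM at E12.5, then 4.86 and 5.89 at E14, then 6.15 and 6.97 at E15.5, 10.6 and 9.50 at E17, and 3.04 and 4.25 at P0. Its E12.5 and E17 libraries were high and both P0 libraries were below all others. It fell by 1.36 (SE 0.18, adjusted p = 0.00298) from E17 to P0 and by 1.11 (SE 0.19, adjusted p = 0.00113) from E12.5 to P0. Sema3b, a ligand of neuropilins, stood apart in the fit of all libraries as the only member called higher from E17 to P0, with 0.825 and 0.935 CPM at E12.5, then 0.530 and 0.539 at E14, then 0.422 and 0.338 at E15.5, 0.381 and 0.526 at E17, and 1.09 and 1.65 at P0. Both P0 libraries were above all other libraries, though on 10 and 69 counts, and its rise from E17 was 1.76 (SE 0.29, adjusted p = 0.00594). That call was lost under 3 of 18 alternatives. Without P0 replicate 2 the value was 1.32, beside 0.98 for Sema7a and 0.67 for Sema6b. With both P0 libraries Sema7a was at 0.32 and Sema6b at -0.02. Oligodendrocyte lineage markers rose over the same interval, from a summed CPM of 62.4 and 77.6 at E17 to 142.6 and 112.6 at P0, with Sox10 at a mean of 1.15 and then 3.71 CPM. Their part in the rise of Sema3b was not tested. Sema3f, the other main Nrp2 ligand, was called in no comparison. Its libraries ranged from 1.32 CPM, at E12.5, to 5.02, at E17, with a fitted difference from E12.5 to P0 of 0.74 (SE 0.33, adjusted p = 0.0782) that became 1.30 and passed the test without P0 replicate 2.

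**Figure D4:**
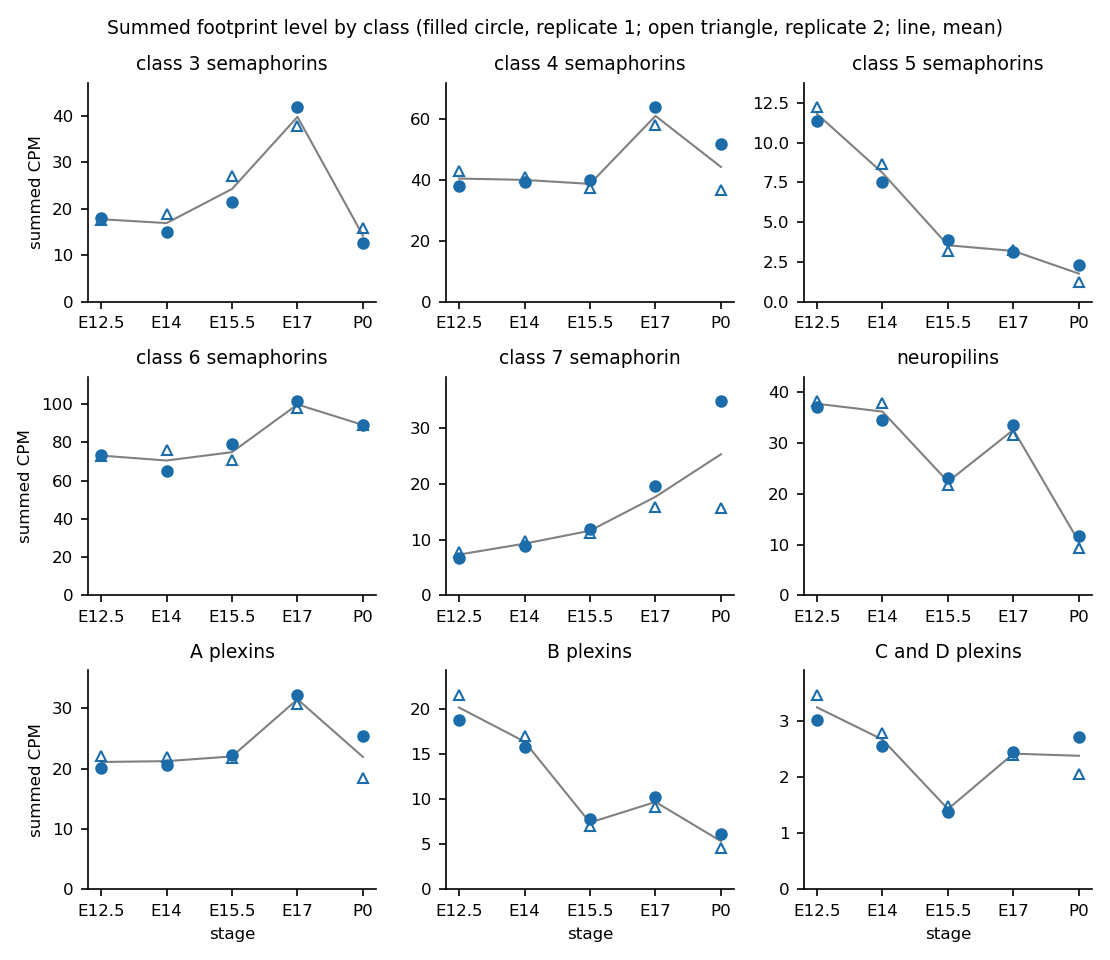
Summed CPM of each semaphorin class, of the neuropilins and of the plexin subfamilies in each library, with a line through the stage means. Scales start at 0 and differ between panels. Class 3, class 4 and A plexin sums were highest at E17, while class 5 and B plexin sums were highest at E12.5.

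Class 4 semaphorins, transmembrane ligands that include the partners of the B plexins, went both ways. Sema4a rose most, with 1.49 and 2.21 CPM at E12.5, then 1.502 and 2.44 at E14, then 4.49 and 4.48 at E15.5, 8.45 and 6.80 at E17, and 8.27 and 6.21 at P0. Its 4 libraries of E12.5 and E14 were below the other 6. It rose by 1.175 (SE 0.27, adjusted p = 0.0109) from E14 to E15.5 and by 1.86 (SE 0.29, adjusted p = 0.000635), or 3.62-fold, from E12.5 to P0. Sema4g had 3.08 and 2.73 CPM at E12.5, then 3.71 and 3.11 at E14, then 5.30 and 4.81 at E15.5, 7.02 and 7.55 at E17, and 6.42 and 5.63 at P0, and every library from E15.5 on exceeded the 4 earlier ones. It rose by 0.59 (SE 0.15, adjusted p = 0.0157) at that step and by 1.02 (SE 0.16, adjusted p = 0.00067) over the span. Sema4f stayed low through E15.5 and rose later, with 0.990 and 1.53 CPM at E12.5, then 1.41 and 1.05 at E14, then 1.15 and 0.971 at E15.5, 2.76 and 2.44 at E17, and 3.37 and 3.17 at P0. The E17 and P0 libraries were all above the 6 earlier ones, with a rise of 1.27 (SE 0.23, adjusted p = 0.0183) from E15.5 to E17 and of 1.31 (SE 0.24, adjusted p = 0.00161) from E12.5 to P0.

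Sema4d, the ligand of plexin B1, went the opposite way, with 5.55 and 5.54 CPM at E12.5, then 5.26 and 6.97 at E14, then 3.25 and 3.29 at E15.5, 5.30 and 4.69 at E17, and 3.59 and 2.34 at P0. It fell by 0.90 (SE 0.20, adjusted p = 0.0083) from E14 to E15.5, by 0.93 (SE 0.21, adjusted p = 0.0191) from E17 to P0 and by 1.08 (SE 0.22, adjusted p = 0.00254) over the span. Without P0 replicate 2 the last 2 values were -0.46 and -0.61 and neither was called. At E17 the level was back between those of E12.5 and E15.5, with a fitted difference from E15.5 of 0.61 (SE 0.20, adjusted p = 0.0968), which did not pass the test. Sema4b followed a similar order, with 7.37 and 8.90 CPM at E12.5, then 7.91 and 7.51 at E14, then 5.24 and 4.98 at E15.5, 8.70 and 7.55 at E17, and 6.74 and 4.39 at P0. It fell by 0.59 (SE 0.19, adjusted p = 0.0399) from E14 to E15.5, by 0.69 (SE 0.19, adjusted p = 0.0387) from E17 to P0 and by 0.70 (SE 0.20, adjusted p = 0.0141) over the span, although each of these calls was lost under 6 or more of 19 alternatives. Sema4c, a ligand of plexin B2, had 19.4 and 22.1 CPM at E12.5, then 19.4 and 19.7 at E14, then 20.5 and 19.0 at E15.5, 31.6 and 29.2 at E17, and 23.4 and 15.0 at P0. Only its E17 libraries stood above the rest, and its fall of 0.76 (SE 0.18, adjusted p = 0.0235) from E17 to P0 was its single call, which was lost without P0 replicate 2, at -0.38.

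Class 5 semaphorins, whose extracellular part carries thrombospondin repeats and which include repellents of corticofugal and retinal axons, showed the largest falls of the family. Sema5a had 5.61 and 5.50 CPM at E12.5, then 3.89 and 4.18 at E14, then 1.69 and 1.48 at E15.5, 1.30 and 1.31 at E17, and 0.870 and 0.621 at P0, with no overlap between any 2 neighbouring stages and both P0 libraries lowest. Sema5b had 5.78 and 6.73 CPM at E12.5, then 3.67 and 4.47 at E14, then 2.20 and 1.73 at E15.5, 1.81 and 1.95 at E17, and 1.41 and 0.621 at P0. Its stages were separate too, except that the E15.5 and E17 libraries overlapped. From E12.5 to P0 Sema5a fell by 3.05 (SE 0.21, adjusted p = 5.96e-06), or 8.29-fold, and Sema5b fell by 3.11 (SE 0.29, adjusted p = 3.64e-05), or 8.66-fold. The counts at P0 were small, at 8 and 26 for Sema5a and 13 and 26 for Sema5b, and without P0 replicate 2 Sema5b fell by 2.10. Most of the fall had occurred by E15.5: from E14, Sema5a fell by 1.33 (SE 0.15, adjusted p = 0.000446) and Sema5b fell by 1.04 (SE 0.23, adjusted p = 0.00855). Both fell again from E17 to P0, by 0.98 (SE 0.23, adjusted p = 0.0201) and by 1.38 (SE 0.31, adjusted p = 0.0186). Without P0 replicate 2 these values were -0.52 and -0.37 and neither passed the test. Sema5a held 49.3% and 45% of the joint footprints of the pair at E12.5, between 40.2% and 41.8% at E17, and 38.1% and 50% at P0.

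The promoters of the 2 members with the largest fall and the 2 with the largest rise from E12.5 to P0, among called members with a single window in the RefSeq promoter table (build GRCm38.p6), are shown to set genes of opposite course side by side. Each is the 250 bases before the annotated start, 5′ to 3′ on the gene's strand, with the GC box GGGCGG or its reverse complement in capitals. Sema5b lies at chr16:35541112-35541361 (plus strand), Sema5a at chr15:32244563-32244812 (plus), Sema7a at chr9:57939862-57940111 (plus) and Sema4f at chr6:82939770-82940019 (minus).
Sema5b: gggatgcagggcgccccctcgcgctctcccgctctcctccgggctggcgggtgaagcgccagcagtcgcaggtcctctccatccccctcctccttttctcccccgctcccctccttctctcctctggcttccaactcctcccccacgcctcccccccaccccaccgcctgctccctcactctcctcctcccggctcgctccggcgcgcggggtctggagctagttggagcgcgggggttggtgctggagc
Sema5a: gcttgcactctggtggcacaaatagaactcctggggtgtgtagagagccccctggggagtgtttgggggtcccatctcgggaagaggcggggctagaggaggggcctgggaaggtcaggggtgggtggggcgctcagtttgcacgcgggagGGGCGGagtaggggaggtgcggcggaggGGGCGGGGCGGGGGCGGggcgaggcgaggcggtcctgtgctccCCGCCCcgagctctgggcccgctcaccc
Sema7a: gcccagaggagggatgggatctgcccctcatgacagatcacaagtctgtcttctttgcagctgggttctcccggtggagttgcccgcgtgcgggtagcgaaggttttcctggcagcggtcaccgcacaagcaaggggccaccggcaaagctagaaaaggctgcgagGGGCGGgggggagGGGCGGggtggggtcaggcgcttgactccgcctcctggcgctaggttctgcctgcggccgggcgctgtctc
Sema4f: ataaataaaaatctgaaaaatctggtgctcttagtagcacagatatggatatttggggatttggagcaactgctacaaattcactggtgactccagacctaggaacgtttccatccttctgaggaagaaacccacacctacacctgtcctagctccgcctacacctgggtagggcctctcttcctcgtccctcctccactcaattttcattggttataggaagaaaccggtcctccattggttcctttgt
The 2 falling genes do not share the motif, since Sema5a has 5 matches, overlapping ones included, and Sema5b 0, and neither do the rising ones, with 2 matches in Sema7a and 0 in Sema4f. The GC content is 72% in both class 5 windows, 66.4% in that of Sema7a and 46% in that of Sema4f, against a median of 52.4% over all 32851 windows. The table held 37 windows for 26 of the 31 members, with a median GC content of 64.0%. Of the 37, 27 had a GC box on either strand, against 32.7% of all windows. CCAAT, searched likewise, was in 7 of the 37 and in 33.8% of all windows, with 2 matches in Sema4f. TATAAA was in 0 of the 37 and in 12.4% of all. These matches describe the letters of the windows, were not adjusted for GC content and were not related to the footprint levels.

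Class 6 semaphorins, transmembrane ligands of the A plexins, changed their makeup. Sema6c had 33.1 and 29.7 CPM at E12.5, then 30.4 and 36.4 at E14, then 47.9 and 44.5 at E15.5, 62.0 and 62.4 at E17, and 56.1 and 60.8 at P0. All 6 libraries from E15.5 on were above the 4 earlier ones. It rose by 0.47 (SE 0.12, adjusted p = 0.0146) from E14 to E15.5 and by 0.90 (SE 0.12, adjusted p = 0.000244) over the span. Sema6d, a ligand of plexin A1, had 26.7 and 30.0 CPM at E12.5, then 24.3 and 27.1 at E14, then 19.2 and 13.8 at E15.5, 20.6 and 18.4 at E17, and 11.8 and 11.4 at P0, and both P0 libraries were below all others. It fell by 0.65 (SE 0.16, adjusted p = 0.0142) from E14 to E15.5, a call lost at -0.42 without E15.5 replicate 2, by 0.76 (SE 0.17, adjusted p = 0.0188) from E17 to P0 and by 1.29 (SE 0.17, adjusted p = 0.000262) over the span. As a share of class 6 footprints, which does not depend on the scaling of libraries, Sema6c went from 45% and 40.9% at E12.5 to 63% and 68.1% at P0, and Sema6d from 36.2% and 41.3% to 13.2% and 12.8%.

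Sema6b, which acts on axons through plexins A2 and A4, had 1.04 and 1.16 CPM at E12.5, then 1.19 and 1.30 at E14, then 2.68 and 2.24 at E15.5, 4.57 and 4.21 at E17, and 6.96 and 3.51 at P0. The 4 libraries of E12.5 and E14 were below the other 6, and the P0 libraries differed widely from each other. Its rise over the span was 1.94 (SE 0.36, adjusted p = 0.00187), or 3.83-fold, the largest rise among the members, with 1.63 if P0 replicate 1 was omitted and 2.63 if replicate 2 was. Sema6a, a ligand of plexins A2 and A4 too, was called in no comparison, with libraries between 8.88 CPM, at E14, and 14.6, at E17, and a fitted difference from E12.5 to P0 of 0.18 (SE 0.14, adjusted p = 0.309). Its 95% confidence interval ran from -0.15 to 0.51, which leaves out a fall but not a rise past the fold threshold.

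Sema7a, the lipid-anchored member, which promotes axon growth through integrin beta 1 and also binds plexin C1, had 6.76 and 7.85 CPM at E12.5, then 8.79 and 9.73 at E14, then 11.9 and 11.2 at E15.5, 19.5 and 15.8 at E17, and 34.8 and 15.7 at P0. Each stage mean was above the one before, but P0 replicate 2 was level with the lower E17 library and P0 replicate 1 was above both. The rise from E12.5 to P0 was 1.57 (SE 0.33, adjusted p = 0.00345), with 1.10 if P0 replicate 1 was omitted and 2.24 if replicate 2 was, and no single step passed the test. Its receptor gene Plxnc1 had 0.935 and 0.935 CPM at E12.5, then 0.883 and 0.824 at E14, then 0.603 and 0.718 at E15.5, 1.27 and 1.28 at E17, and 1.09 and 0.931 at P0. Both E17 libraries were above all others, and the rise from E15.5 to E17, 0.96 (SE 0.21, adjusted p = 0.0316), was its single call, which was lost under 12 of 18 alternatives.

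The neuropilins, which hold the secreted ligands, both ended lower but took different routes. Nrp2, the receptor subunit for Sema3f, had 28.9 and 30.9 CPM at E12.5, then 26.6 and 28.9 at E14, then 13.9 and 13.6 at E15.5, 19.2 and 19.1 at E17, and 7.72 and 5.97 at P0. The libraries fell into separate bands, with E12.5 and E14 together on top, then E17, then E15.5, then P0. It fell by 1.01 (SE 0.12, adjusted p = 0.000481) from E14 to E15.5, rose by 0.48 (SE 0.12, adjusted p = 0.0458) to E17 and then fell by 1.56 (SE 0.13, adjusted p = 0.000936), and over the span it fell by 2.20 (SE 0.13, adjusted p = 3.46e-06), or 4.59-fold. The call for the rise to E17 was lost under 11 of 19 alternatives. Nrp1, the subunit for Sema3a and also a receptor for VEGF on vessels, had 8.30 and 7.33 CPM at E12.5, then 7.95 and 8.91 at E14, then 9.13 and 8.19 at E15.5, 14.4 and 12.4 at E17, and 4.02 and 3.39 at P0. The libraries of its 3 earliest stages overlapped, both E17 libraries were above and both P0 libraries below all others. It rose by 0.63 (SE 0.13, adjusted p = 0.0279) from E15.5 to E17 and fell by 1.91 (SE 0.16, adjusted p = 0.000776) from E17 to P0, and over the span it fell by 1.12 (SE 0.16, adjusted p = 0.000472).

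Nrp1 took a larger part of neuropilin footprints from E15.5 on than before. Its share was 22.3% (exact 95% binomial interval 19.2 to 25.7%) and 19.2% (16.8 to 21.7%) at E12.5, then 23% and 23.6% at E14, then 39.7% and 37.7% at E15.5, 42.9% (39.9 to 46.0%) and 39.4% (36.0 to 42.8%) at E17, and 34.3% and 36.2% at P0. Both libraries of each stage from E15.5 on were above the 4 earlier ones, and both P0 libraries were below those of E15.5 and E17. These intervals take the deposited whole numbers as reads and cover counting error only, and with 2 libraries a stage an exact permutation test of a share between stages could not go below p = 0.333.

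The summed levels of the A plexins, which transmit class 3 and class 6 signals, overlapped between E12.5 and P0 and were highest at E17. They were 20.1 and 22.1 CPM at E12.5, 32.3 and 30.8 at E17, and 25.3 and 18.5 at P0. Plxna4, a partner of Nrp1 for Sema3a and a receptor of Sema6a, was the receptor gene that rose, with 3.35 and 3.52 CPM at E12.5, then 3.27 and 3.39 at E14, then 4.76 and 4.86 at E15.5, 8.67 and 8.94 at E17, and 6.09 and 4.39 at P0. Its E17 libraries were highest and all libraries from E15.5 on were above the 4 earlier ones. It rose by 0.52 (SE 0.16, adjusted p = 0.0322) from E14 to E15.5 and by 0.87 (SE 0.14, adjusted p = 0.014) to E17, fell by 0.85 (SE 0.15, adjusted p = 0.00683) to P0, and ended higher than at E12.5 by 0.49 (SE 0.17, adjusted p = 0.0307), a call lost under 7 of 19 alternatives. The call from E14 to E15.5 was lost under 10 of 19 alternatives and that from E15.5 to E17 under 4.

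Plxna1, a partner of both neuropilins, had 6.66 and 7.22 CPM at E12.5, then 6.54 and 6.81 at E14, then 6.36 and 6.42 at E15.5, 9.78 and 9.76 at E17, and 9.79 and 7.57 at P0, with all embryonic libraries up to E15.5 below those of E17 and P0. It rose by 0.61 (SE 0.13, adjusted p = 0.029) from E15.5 to E17, its single call, which was lost under 10 of 19 alternatives. Plxna2, a receptor of Sema6a, had 7.59 and 8.23 CPM at E12.5, then 7.38 and 8.43 at E14, then 7.53 and 7.35 at E15.5, 8.96 and 7.77 at E17, and 5.87 and 4.27 at P0, with the P0 libraries lowest. It fell by 0.82 (SE 0.17, adjusted p = 0.0121) from E17 to P0 and by 0.75 (SE 0.17, adjusted p = 0.00495) over the span. Without P0 replicate 2 the values were -0.50 and -0.42 and both calls were lost. Plxna3, a partner of Nrp2 for Sema3f, had 2.53 and 3.10 CPM at E12.5, then 3.36 and 3.30 at E14, then 3.65 and 3.12 at E15.5, 4.86 and 4.28 at E17, and 3.59 and 2.29 at P0. Its E17 libraries were highest and it fell by 0.83 (SE 0.20, adjusted p = 0.0248) from E17 to P0, a call lost at -0.33 without P0 replicate 2, while the difference over the span, -0.15 (SE 0.22, adjusted p = 0.583), did not pass the test and turned sign with library totals as the scale.

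The B plexins are receptors of class 4 semaphorins and are known from neural progenitors and from migrating neurons. Plxnb2 had 15.3 and 17.9 CPM at E12.5, then 12.8 and 14.1 at E14, then 6.51 and 5.87 at E15.5, 8.54 and 7.70 at E17, and 4.89 and 3.70 at P0, and Plxnb1 had 3.41 and 3.59 CPM at E12.5, then 2.92 and 2.88 at E14, then 1.27 and 1.10 at E15.5, 1.65 and 1.43 at E17, and 1.20 and 0.811 at P0. For both genes the 4 libraries of E12.5 and E14 were above all others and the P0 replicate 2 library was lowest. From E14 to E15.5 Plxnb2 fell by 1.11 (SE 0.15, adjusted p = 0.000854) and Plxnb1 fell by 1.27 (SE 0.18, adjusted p = 0.00124), and over the span Plxnb2 fell by 2.05 (SE 0.17, adjusted p = 1.6e-05) and Plxnb1 fell by 1.999 (SE 0.20, adjusted p = 6.06e-05), which is 4.13-fold and 4.00-fold. From E17 to P0 they fell by 1.01 (SE 0.17, adjusted p = 0.00611) and by 0.82 (SE 0.22, adjusted p = 0.0322), the latter call being lost under 15 of 19 alternatives and its value being -0.32 without P0 replicate 2. The summed level of both fell beside that of their class 4 ligand gene Sema4d, described above, whereas Sema4c was not called over the span, at -0.21 (SE 0.19, adjusted p = 0.354), a difference that turned sign with library totals as the scale. Both ligand values moved with single libraries, since Sema4c was called lower without P0 replicate 1, at -0.47 (adjusted p = 0.00657 in limma-voom), and Sema4d was not called without P0 replicate 2, at -0.61.

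From E12.5 to P0 the mean summed CPM of B plexins went from 20.1 to 5.31, and that of A plexins from 21.1 to 21.9. Among all plexin footprints the share of B plexins fell and that of A plexins rose. B plexins took 44.7% and 45.8% at E12.5, then 40.5% and 40.7% at E14, then 24.7% and 23.1% at E15.5, 22.7% and 21.6% at E17, and 17.8% and 18.1% at P0. The shares of A plexins over the same libraries were 48.1% and 46.9%, 52.9% and 52.6%, 70.9% and 72%, 71.9% and 72.7%, and 74.2% and 73.8%. Replicates differed by less than 2 percentage points at every stage, the P0 libraries included, and the widest gap between neighbouring stages was that from E14 to E15.5. In Plxnb2 alone, the share of plexin footprints went from 36.5% and 38.1% at E12.5 to 14.3% and 14.7% at P0.

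**Figure D5:**
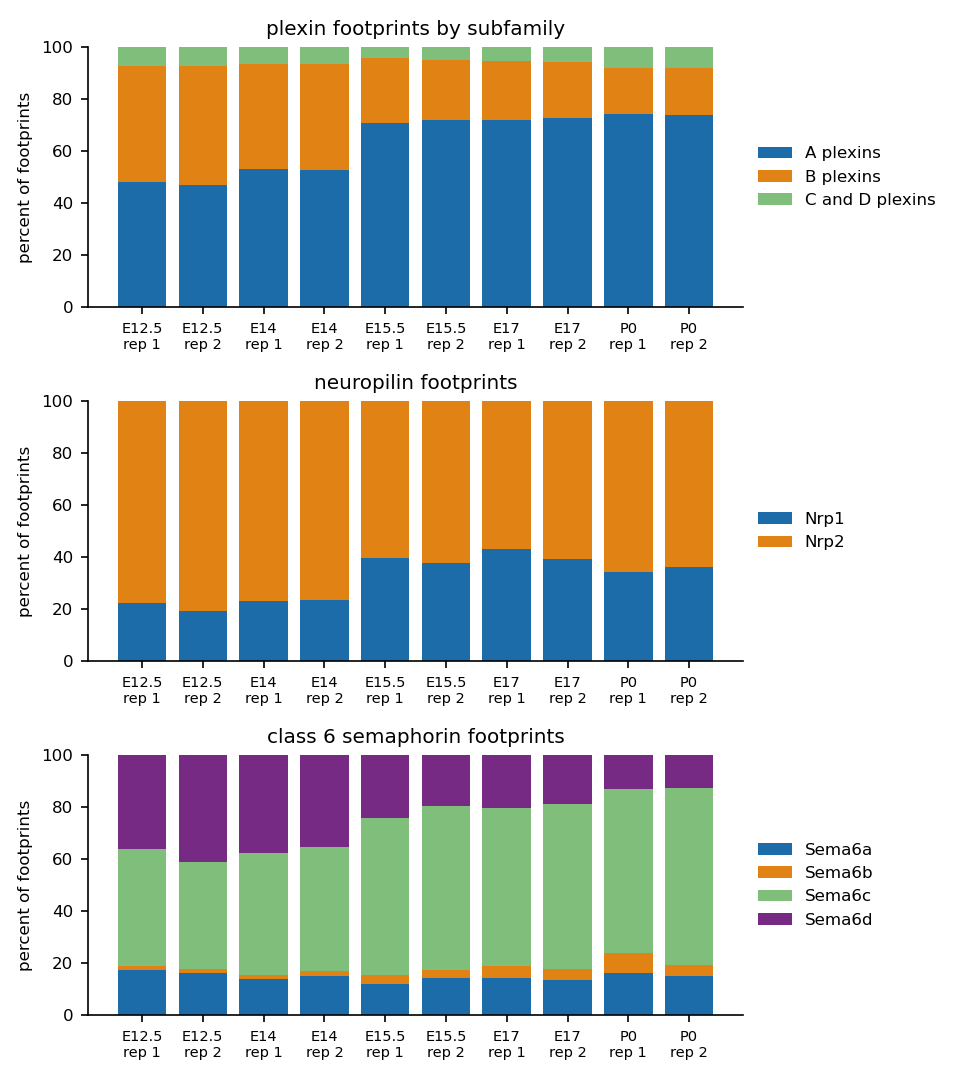
Makeup of plexin footprints by subfamily, of neuropilin footprints and of class 6 semaphorin footprints, in percent of the counts of each family in each library. Longer coding sequences gather more footprints, so the shares compare libraries and not genes. B plexins shrank from 44.7% and 45.8% to 17.8% and 18.1%, Nrp1 grew from 22.3% and 19.2% to 42.9% and 39.4% at E17, and Sema6c gained on Sema6d.

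Plxnd1, known from endothelial cells and as a direct receptor of Sema3e, had 2.09 and 2.54 CPM at E12.5, then 1.68 and 1.97 at E14, then 0.783 and 0.760 at E15.5, 1.175 and 1.13 at E17, and 1.63 and 1.12 at P0. Its E12.5 and E14 libraries were above all others and its E15.5 libraries were lowest. It fell by 1.23 (SE 0.24, adjusted p = 0.00494) from E14 to E15.5 and by 0.95 (SE 0.21, adjusted p = 0.00443) over the span, a call lost at -0.49 without P0 replicate 2. The summed CPM of the endothelial markers had the same order of embryonic stages, at 43 and 45.6 at E12.5, then 38.6 and 45.3 at E14, then 15.49 and 13.51 at E15.5, 23 and 30.5 at E17, and 26.4 and 17.7 at P0. The part of vessel cells in the level of Plxnd1 was not tested.

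Downstream of the receptors, a list of 44 other genes of the pathway, all of which were tested, held co-receptors and alternative receptors, cytoplasmic effectors, and small GTPases with their regulators. From E12.5 to P0, 27 rose and 11 fell, which is 86.4% called beside 62.1% of all genes, and from E14 to E15.5, 21 rose and 8 fell, which is 65.9% beside 36.1%. Of all genes tested, 30.1% were called higher and 32% lower over the span, and 16.5% and 19.6% from E14 to E15.5. Of the 19 cytoplasmic effectors 15 rose over the span and 2 fell, with a median log2 fold change of 1.22. The 9 co-receptors went both ways, with 4 higher and 4 lower, as did the 16 small GTPases and regulators, with 8 higher and 5 lower. The list holds genes with many roles outside this pathway. It was chosen with earlier results of these data known, so its shares beside those of all genes are a description and not a test.

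The 4 largest rises of the list from E12.5 to P0 were those of Met, the HGF receptor that binds plexin B1, of Mical2, an actin oxidase, of Chl1, an adhesion molecule that partners neuropilin 1, and of Cdk5r1, the activator of the kinase Cdk5. Met went from a mean of 0.295 ± 0.205 to 5.18 ± 0.514 CPM (SD, n = 2) and Mical2 from 0.573 ± 0.123 to 8.14 ± 0.642, and they rose by 4.32 and 3.82 on the log2 scale, with adjusted p of 7.56e-05 and 1.51e-05 in limma-voom. Chl1 went from 13.7 ± 2.19 to 88.5 ± 24.8 CPM and Cdk5r1 from 25 ± 2.09 to 125.8 ± 25.2, rising 6.49-fold and 4.93-fold with adjusted p of 1.56e-05 and 3.82e-06. The 4 largest falls were those of Kdr, the VEGF receptor of vessels, of Rnd2, a GTPase of migrating neurons, of Itgb1, the integrin beta 1 receptor of Sema7a, and of Erbb2, a kinase that binds plexin B1. Kdr went from 4.42 ± 0.0563 to 0.481 ± 0.242 CPM and Erbb2 from 1.30 ± 0.0343 to 0.138 ± 0.0412, and they fell by 3.60 and 2.90, with adjusted p of 3.74e-05 and 0.000543. The P0 levels of Kdr and Erbb2 and the E12.5 level of Met lay near the floor, on few footprints in each library, so the sizes of these changes are imprecise. Rnd2 went from 51.6 ± 9.06 to 6.12 ± 1.34 and Itgb1 from 51.4 ± 5.71 to 6.04 ± 3, and they fell by 3.16 and 2.98, with adjusted p of 4.54e-06 and 2.53e-05. Within the group of receptors the plexin B1 partners Met and Erbb2 thus moved in opposite directions, while Plxnb1 itself fell. Over this span all 10 meningeal and 8 of 10 endothelial markers were called lower, and 1 endothelial marker higher. Their part in the falls of Kdr and Itgb1 was not tested.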

How the data were processed

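Ribosome footprints of mouse neocortex were counted in 10 libraries, 2 at each of 5 stages, with groups taken from the sample labels. Footprint counts were deposited as whole numbers, with 1 value for each gene and library. The authors trimmed adapters, collapsed duplicate reads, discarded rRNA, tRNA and snoRNA reads and aligned the rest with STAR (version 2.7.0 in the submitters' processing notes) to GENCODE M12 coding transcripts and, apart from these, to the genome, keeping reads that match several places. The methods then describe isoform estimates (DeepShape-prime) turned into length-corrected gene counts (tximport). Whether the table holds those estimates or direct read counts, and how its shared reads were split, is not given in the sources used here, so its whole numbers may not be single reads. No column of per-sample values was left unused. Levels per coding length were planned but not computed, because no coding lengths were in the reference used here.

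Of 22373 genes, 22274 matched a symbol. The filter kept the 13484 genes that reached 32 footprints, both libraries summed, in some stage. Library sizes were scaled by TMM (edgeR 4.0.16) and tested with limma-voom (limma 3.58.1, R 4.3.3), with 1 coefficient per stage over all 10 libraries and no covariate. The 5 comparisons were the 4 steps between neighbouring stages and P0 against E12.5. Two-sided p-values were adjusted over all 13484 genes (Benjamini-Hochberg), and calls needed both an adjusted p under 0.05 and a change of 1.25-fold or more. A moderated F test of the contrasts against E12.5 had no fold threshold. The code was tested on simulated data. As replicates are pools, p-values measure the spread between pools.

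Members called in any comparison are given with all library values, and the rest by range or total. Of the list of 44 pathway genes, the 4 largest rises and 4 largest falls from E12.5 to P0 among called genes are named. Members, pathway list and markers were chosen with earlier results of these data known. Alternatives were the edgeR quasi-likelihood test, DESeq2 (1.42.0), library totals, median-of-ratios scaling, no filter, at least 100 footprints, sample quality weights, a replicate block, the 2 compared stages alone, and each library left out in turn. Promoter letters were read from the RefSeq promoter table (GRCm38.p6).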

Additional observations from a re-analysis of the deposited data

How the results depend on the processing

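Of 57 member calls, no alternative reversed a direction, and 868 of 1080 alternative values kept the call. The 7 calls from E15.5 to E17 became 4 with the edgeR quasi-likelihood test, 4 without a filter, 4 with the replicate block, 11 with library totals, 21 with sample quality weights and 19 with the 2 stages alone, all of them higher. The 16 calls from E17 to P0 became 9 with DESeq2, 5 with sample quality weights and 0 with the 2 stages alone, where 16 members had an unadjusted p under 0.05. With each library left out in turn, calls ranged from 0 to 3 from E12.5 to E14, from 7 to 15 from E14 to E15.5, from 0 to 17 from E15.5 to E17, from 4 to 18 from E17 to P0, from 17 to 21 from E12.5 to P0 and from 20 to 27 in the F test. The cause of these changes was not tested. Counts of the pathway list stayed within 1.5 times under every alternative. Library totals raised the share of rises among all called genes from 45.6% to 72.7% from E14 to E15.5, from 48.5% to 72.0% from E12.5 to P0, from 77.9% to 90.9% from E12.5 to E14 and from 46.1% to 63.4% from E17 to P0, and turned the sign of 11 of 135 member differences, none of them called. Correlations of replicate deviations between stages lay between -0.64 and 0.43, with 5 of 10 above 0.1 and those with E12.5 all negative. Replicate deviations were thus related between stages, and the labels do not say whether replicate numbers pair the libraries. The replicate block left 14, 14 and 19 calls from E14 to E15.5, E17 to P0 and E12.5 to P0. P0 replicate 1, with 7544404 counts, limits the precision at P0, where Sema5a had 8 counts and Sema3b 10.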
